A study of Mus musculus with 12 samples.

Results

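Cluster 10 was a T cell cluster marked by Cd4, Tnfsf11, Csf2, Il13 and Cd40lg, and it held 625 of the 93126 cells of the series (0.671%). Its members were chosen by the cluster number that the study assigned to each cell. They made up 5.20% of the 12021 cells of the 9 T/NK clusters, which are the clusters of T cells and natural killer cells numbered 1, 3, 7, 8, 10, 12, 13, 23 and 24.

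The cells came from 48 tumors of MC38, a C57BL/6J colon carcinoma line, grown under the skin of female mice 8 to 12 weeks old. Hosts were C57BL/6J mice (B6) or F1 offspring of C57BL/6J with a Collaborative Cross strain, where the second parent was CC001/UncJ, CC002/UncJ, CC075/UncJ, CC036/UncJ, CC079/TauUncJ, CC080/TauUncJ or CC007/UncJ, and hosts are called here by that CC number. At a tumor size of 75 to 110 mm3 each mouse was given 200 ug of either an antibody to PD-1 (aPD1) or an isotype control antibody, and 48 h later tumors were removed, frozen and then sorted to 90% CD45+ and 10% CD45- cells. The study classes CC001, CC002 and CC075 as responder and CC036, CC079 and CC080 as non-responder strains by how aPD1 slowed tumor growth. The labels do not give this class, a class is 3 strains and cannot be told apart from them, and B6 and CC007 were left unclassed. A tumor here means the cells of 1 strain and treatment in 1 of 12 pooled libraries, each of which held 4 tumors told apart by hashtag antibodies.

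CD4+ helper T cells are activated by peptide on MHC class II and act on other cells through secreted cytokines and surface ligands. CD40 ligand (Cd40lg) licenses dendritic cells and B cells, RANKL (Tnfsf11) acts on myeloid and dendritic cells through RANK, and GM-CSF (Csf2) sustains myeloid cells. Il4, Il5 and Il13 are the classical type 2 cytokines, Ifng the type 1 cytokine, Il17a the type 17 cytokine and Il21 the cytokine of follicular helper cells. Regulatory T cells are a separate CD4+ lineage defined by Foxp3.

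The number of cluster 10 cells per tumor ran from 0 to 87, and 4 tumors had none. The tumors with none were CC079 aPD1 in pools 1 and 2, CC075 isotype in pool 10, and CC007 aPD1 in pool 6, a tumor of only 53 cells. Of the 625 cells, 87 came from CC080 isotype in pool 4 and 80 from CC036 isotype in pool 8, which together held 26.7%. Share and gene comparisons were therefore repeated without these tumors, whereas levels of the cluster include both tumors unless stated. Tumors were sequenced to between 88816 and 17713491 unique molecular identifiers (UMIs, each counting 1 captured RNA molecule) over 53 to 3082 cells. Cluster 10 cells had a median of 2519 UMIs and 1211 genes, with a range of 507 to 14339 UMIs, against a median of 3333.5 UMIs over all cells. Libraries shared 4990 cell barcodes, and 86 of the 625 cells carried a barcode also present in another library. Hashtags went with treatment in every pool, so the tag and the antibody given cannot be told apart.

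The label of CD4 helper T cells was checked against markers. All 10 of the αβ T cell genes listed, among them Cd3e and Trac, reached at least 100 CPM (UMIs of the gene per 1000000 UMIs of the cells) in cluster 10. Cd4 stood at 482 CPM against 43.2 CPM in the other T/NK cells together, and the other helper genes Tnfsf8, Icos, Cd40lg, Cd28 and Zbtb7b were also above those cells. Because a UMI counts a molecule at its 5′ end, CPM values of different genes can be set side by side without a length correction. The defining genes of other lineages were low or below those cells. Foxp3 stood at 7.37 CPM, against 247 CPM in cluster 8, the T/NK cluster with the most Foxp3, and Ikzf2, also expressed by regulatory cells, at 186 against 1514 CPM. Of the 11 genes of the regulatory list, however, 5 were above the other T/NK cells, namely Ctla4, Tnfrsf18 (493 against 278 CPM), Tnfrsf4 (481 against 233 CPM), Ebi3 (80.0 against 13.8 CPM) and Ikzf4 (22.6 against 19.6 CPM). Tnfrsf18 and Tnfrsf4 encode the costimulatory receptors GITR and OX40. Cd8a was at 51.1 CPM and Cd8b1 at 32.7 CPM, and the 9 CD8 and cytotoxic genes summed to 883 CPM, of which Nkg7 gave 724, against 4924 CPM in cluster 13. None of the 8 natural killer genes was above the other T/NK cells, with the receptor gene Ncr1 at 0 and Klrd1 at 376 against 691 CPM. Tcrg-C1 of γδ T cells was at 0. The 8 macrophage genes summed to 140 CPM, with Csf1r at 2.63 and Adgre1 at 0.527 CPM, against 13932 CPM in macrophage-rich cluster 2 and 7708 CPM in cluster 12. No doublet caller was run, and 11 of the 625 cells had over 10000 UMIs.

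**Figure D1:**
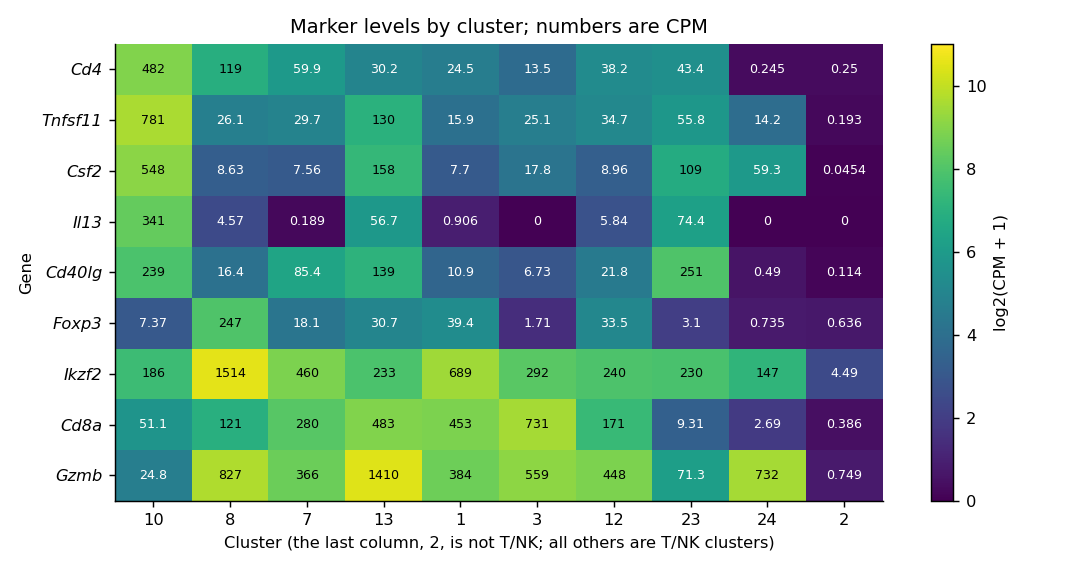
Levels of 9 genes (rows) in cluster 10, the other T/NK clusters and the macrophage-rich cluster 2 (columns), as CPM of the summed counts, with colour on the log2(CPM + 1) scale. Cd4, Tnfsf11, Csf2 and Il13 were highest in cluster 10, Cd40lg stood at 239 CPM there and 251 CPM in cluster 23, and Foxp3 was highest in cluster 8.

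These levels are a description, since clusters were built from the same genes. The 15 genes of largest fold over the other T/NK cells, among those of at least 100 CPM, began with Dthd1 (187 CPM, 68.9-fold), Il13 (341 CPM, 60.1-fold), Lgals7 (137 CPM, 33.3-fold), Tnfsf8 (854 CPM, 24.9-fold) and Tnfsf11 (781 CPM, 24.7-fold). Tnfsf8 encodes the ligand of CD30. Next came Ntrk3, Csf2 (548 CPM, 19.6-fold), Igfbp7, Tff1, Tbc1d4, Il1r2 (507 CPM, 11.8-fold), Cd4, St6gal1, Penk (829 CPM, 10.6-fold) and Dusp14. Il1r2 is the decoy receptor of IL-1, and Penk encodes the enkephalin precursor. They differed in how many cells and tumors carried them. Tnfsf11 was seen in 62.4% of the cells and in 43 of the 44 tumors with a cluster 10 cell, whereas Il13 was seen in 8.32% of the cells and 21 tumors.

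To compare shares of positive cells across depths, each cell was thinned to 1000 UMIs, which left out 44 of the 625. In cluster 8 this left out 649 of 2206 cells and in cluster 23 49 of 212, so thinned shares describe the deeper cells of each cluster. Cd4 then had a UMI in 38.4% of cluster 10 cells (95% exact interval 34.4 to 42.5%), against 65.1% with all UMIs. In cluster 8 (median 1375.5 UMIs) the thinned share of Cd4 was 16.1%, and in macrophage-rich cluster 2 (median 3881 UMIs) it was 0.0271%. Tnfsf11 was seen in 41.3% of thinned cluster 10 cells, 1.54% of cluster 8 and 0.0325% of cluster 2. Csf2 was seen in 17.0% (14.1 to 20.3%), 0.385% and 0% in the same order, and Cd40lg in 19.8%, 1.67% and 0%. Il13 had a UMI in 6.20% of cluster 10 cells (4.38 to 8.48%), 0.128% of cluster 8 and no cell of cluster 2. Other T/NK clusters lay nearer to cluster 10 for some markers. The thinned share of Cd40lg in cluster 23 was 17.8% (12.3 to 24.5%), and its interval overlapped that of cluster 10 (16.6 to 23.3%). Il13 in cluster 23 was at 3.07% (1.003 to 7.01%), also with overlap, and Csf2 at 5.52%. In cluster 13, Tnfsf11 was at 9.81% and Cd40lg at 7.95%. Foxp3 was seen in 1.03% of cluster 10 and 28.8% of cluster 8. All of the marker shares in cluster 10 lay well above those of the macrophage cluster, which should lack these genes. Intervals cover counting error only.

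The cells of cluster 10 held most of the UMIs of several helper cytokines in the whole series, although they were 0.671% of its cells. Of all Il13 UMIs, 77.7% were in cluster 10, and the share was 77.6% for Il4, 71.6% for Il5, 60.2% for Il21, 57.5% for Tnfsf11 and 53.1% for Csf2. Penk (37.9%), Cd40lg (29.3%), Ccl1 (28.0%), Lta (24.7%) and Tnfsf8 (21.7%) were spread over more clusters. The remaining UMIs of Tnfsf8 lay mostly outside the T/NK cells (63.8%). Cluster 13 held 71.1% of the Il2 and 52.3% of the Ifng, and cluster 10 only 10.4% and 5.47%. Of Tnf, 94.4% was outside the T/NK cells and 0.636% in cluster 10. Il10, a cytokine of regulatory cells among others, was 44.7% in cluster 8 and 3.72% in cluster 10.

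**Figure D2:**
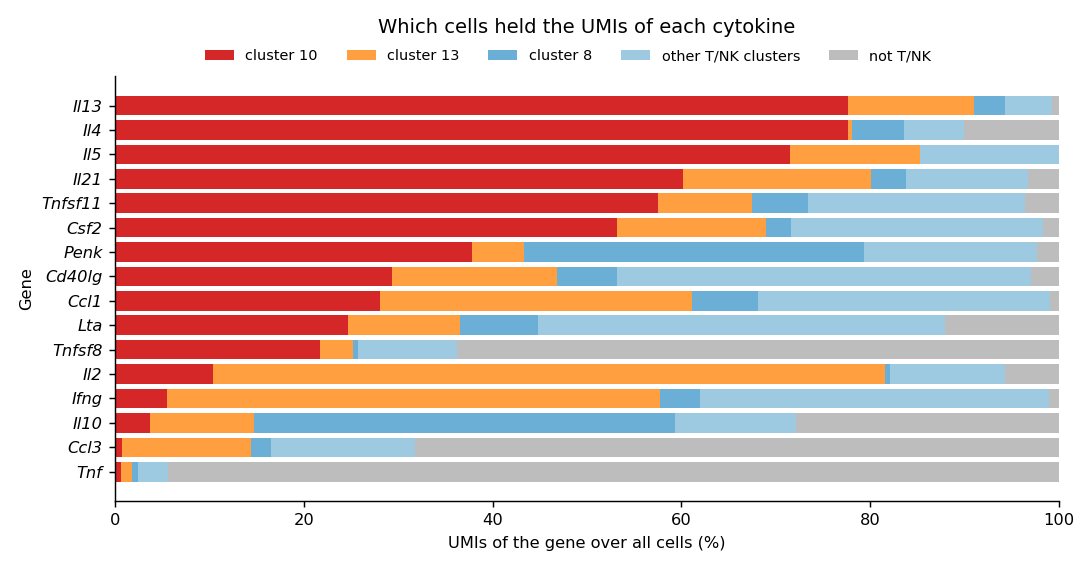
Share of all UMIs of each of 16 cytokine and ligand genes (rows, % of the UMIs of that gene over all 93126 cells) found in cluster 10, cluster 13, cluster 8, the other T/NK clusters and all cells outside them. Cluster 10 held over 50% of the UMIs of Il13, Il4, Il5, Il21, Tnfsf11 and Csf2, and cluster 13 over 50% of those of Il2 and Ifng.

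By lineage list, cluster 10 did not hold the genes of 1 helper type alone. As background for the counts of genes above the other T/NK cells as a whole, 48.4% of the 6458 genes of at least 20 CPM in either set were above, and 35.7% of the 21446 genes with a UMI in a T/NK cell. Of the type 2 list, 9 of 10 measured genes were above the other T/NK cells, with Gata3, the type 2 regulator, at 123 against 64.1 CPM and the chemokine receptor Ccr8 at 99.0 against 30.5 CPM. Of the type 17 list, 8 of 9 were above, among them Rora (678 against 177 CPM) and Il17a (22.6 against 2.05 CPM), whereas Il22 was at 0. Rora gave 678 of the 802 CPM summed over the type 17 list and was its only gene of at least 100 CPM. The type 2 and follicular helper lists had 2 such genes each. Without CC036 isotype in pool 8, which held 65.1% of its UMIs, Il17a was at 8.84 CPM. Cluster 23, a single cluster within the other T/NK cells, was above cluster 10 in the sum of the type 17 list (1669 against 802 CPM, with Il17a at 149 CPM and Rora at 794 CPM) and of the type 2 list (1169 against 773 CPM, with Gata3 at 338 CPM). Of the follicular helper list, 8 of 9 were above, including Il21 (68.5 against 2.49 CPM), Bcl6 (90.1 against 28.3 CPM) and Pdcd1, which encodes PD-1 (238 against 152 CPM), whereas Cxcr5, the follicle-homing receptor, was at 2.63 CPM and Ascl2 at 0. The type 1 list was split, 4 of 8 above, with Stat4 at 515 against 298 CPM, Tbx21 at 121 against 139 CPM and Ifng at 680 against 696 CPM. Activation genes were above in 12 of 15, such as Nr4a1 (494 against 284 CPM), Rel (435 against 185 CPM) and Batf (199 against 73.4 CPM), while Myc was at 17.9 against 64.3 CPM. Cluster 13 was above cluster 10 in the sum of the activation list (5824 against 4004 CPM). Of the 9 genes of naive and memory cells 5 were above the other T/NK cells, a count near the background share. Ccr7, the lymph node homing receptor, was at 163 against 37.5 CPM, Bach2 at 209 against 184 CPM and Il7r at 181 against 160 CPM, while Klf2 was at 23.7 against 155 CPM. In sum this list was at 927 CPM in cluster 10, below 1911 CPM in cluster 7 and 2689 CPM in cluster 23. None of the 15 interferon response genes and none of the 8 cell cycle genes were above the other T/NK cells (for example Isg15 at 63.2 against 129 CPM and Mki67 at 60.0 against 147 CPM).

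Of the inhibitory receptors, 6 of 10 were above the other T/NK cells, among them Ctla4 (586 against 365 CPM), Lag3 (265 against 186 CPM) and Cd200 (306 against 67.9 CPM). Havcr2 (83.7 against 128 CPM) and Entpd1 (46.3 against 93.9 CPM) were below. In the sum of these receptors cluster 8 was at 2253 CPM and cluster 10 at 2171 CPM. Of the cytokine receptors 6 of 16 were above the other T/NK cells. Il2ra was at 215 against 225 CPM and Il18r1 at 337 against 212 CPM, and the receptor of GM-CSF, Csf2rb, was at 1.05 CPM in the cells that held most Csf2. Dendritic cell (4 of 6 genes at 0), mast cell and basophil (4 of 4 at 0), B cell (13.7 CPM summed) and fibroblast genes (0.527 CPM summed) were at or near 0.

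The type 2 cytokines were carried by few cells. Il13 gave 648 UMIs in 52 cells, of which 3 cells held 50% and 1 cell 225 UMIs (34.7%). In CC001 aPD1 of pool 12, 2 of the 4 cluster 10 cells held 42.6% of all Il13 UMIs of the cluster, and without this tumor its level was 198 CPM. Il4 gave 170 UMIs in 11 cells and Il5 78 UMIs in 14 cells, and the same tumor held 55.3% and 42.3% of them. Without it Il4 was at 40.5 instead of 89.5 CPM and Il5 at 23.98 instead of 41.1 CPM. Csf2 was spread wider, over 149 cells and 35 tumors with 15 cells holding 50%, and Tnfsf11 wider still, with 73 of 390 cells holding 50%. Ifng was in 202 cells, of which 13 held 50%. Il17a was in 11 cells, 8 of them from CC036 isotype in pool 8.

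**Figure D3:**
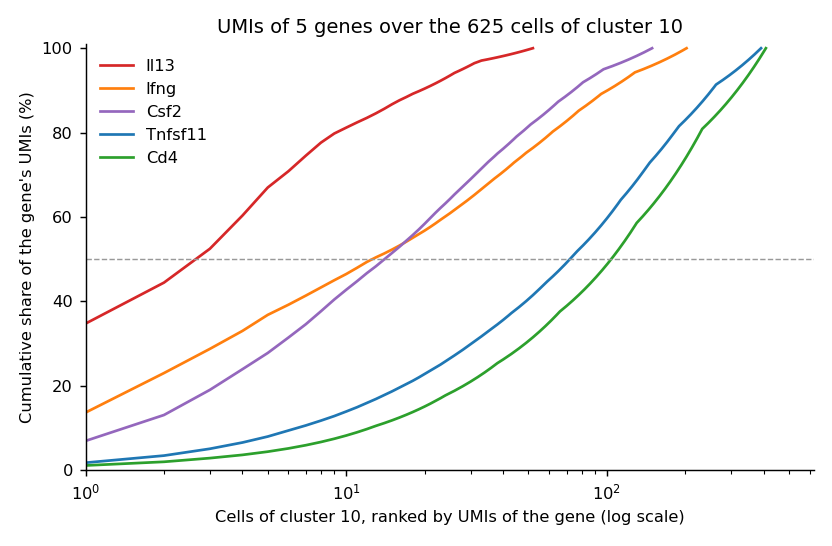
Cumulative share of the UMIs of 5 genes (y axis, %) over the 625 cells of cluster 10 ranked by their UMIs of that gene (x axis, log scale), with a dashed line at 50%. Il13 reached 50% after 3 cells, Ifng after 13, Csf2 after 15, Tnfsf11 after 73 and Cd4 after 104.

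Some cytokines were seen in the same cells. Of the 52 cells with Il13, 7 also had Il4 (0.915 from the product of the shares) and 10 had Il5 (1.16). Il13 and Ifng met in 16 cells, near the product of 16.8. Csf2 was seen together with Ifng in 75 cells (product 48.2), with Ccl1 in 79 (39.3) and with Tnfsf11 in 113 (93.0). Il21 and Ifng met in 33 cells (19.4), and none of the 11 cells with Il17a had Ifng. Cd4 and a CD8 gene (Cd8a or Cd8b1) met in 9 cells, against a product of 24.7, and 38 cells had a CD8 gene. Cells with Csf2 had more UMIs, with a median of 2985 against 2375.5 for those without, as did cells with Il13 (3288 against 2463). Cells with Il21 (2471 against 2527) and Il17a (2259 against 2526.5) had fewer. Products were taken over the cells of all tumors together, so they do not allow for tumors high or low in both genes. The part of depth and of tumor in these overlaps was not tested.

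Il4, Il13 and Il5 are neighbours on chromosome 11 of GRCm38 (GENCODE vM21), at 53602982 to 53618669, 53631324 to 53634702 and 53720794 to 53725106, with Rad50 between the latter pair and Csf2 further along at 54247271 to 54249667. Promoters of Il13, Il4, Csf2 and Tnfsf11 are shown as examples among genes of which cluster 10 held over 50% of the UMIs in the series. They were picked in part because the motif GGAAA, the core of the site bound by NFAT, can be read in them. The Il5 window was found but is not printed, and Il21 was not looked up. NFAT is the factor that T cell receptor signals bring into the nucleus. The 250 bases before the RefSeq start (GRCm38.p6) are printed 5′ to 3′ on the strand of the gene, with GGAAA of either strand in capitals (TTTCC where it lies on the other strand). Windows were found for 6 of 8 genes looked up. They lie at chr11:53634703-53634952 for Il13, chr11:53618666-53618915 for the upstream of the pair of Il4 starts, chr11:54249900-54250149 for Csf2, whose RefSeq start is upstream of the GENCODE one, and chr14:78308044-78308293 for Tnfsf11, all on the minus strand.
Il13: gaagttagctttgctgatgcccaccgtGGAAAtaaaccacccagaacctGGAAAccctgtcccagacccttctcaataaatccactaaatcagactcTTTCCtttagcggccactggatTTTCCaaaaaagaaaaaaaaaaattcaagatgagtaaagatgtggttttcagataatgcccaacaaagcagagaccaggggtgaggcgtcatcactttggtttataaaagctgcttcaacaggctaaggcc
Il4: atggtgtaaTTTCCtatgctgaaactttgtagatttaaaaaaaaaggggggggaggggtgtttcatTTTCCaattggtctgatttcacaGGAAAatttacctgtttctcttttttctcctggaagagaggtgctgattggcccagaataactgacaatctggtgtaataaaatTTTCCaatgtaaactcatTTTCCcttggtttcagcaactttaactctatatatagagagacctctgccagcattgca
Csf2: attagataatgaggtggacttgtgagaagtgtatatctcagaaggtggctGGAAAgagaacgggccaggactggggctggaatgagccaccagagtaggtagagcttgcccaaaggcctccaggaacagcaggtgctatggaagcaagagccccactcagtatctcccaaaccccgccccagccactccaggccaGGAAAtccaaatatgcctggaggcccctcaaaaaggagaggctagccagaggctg
Tnfsf11: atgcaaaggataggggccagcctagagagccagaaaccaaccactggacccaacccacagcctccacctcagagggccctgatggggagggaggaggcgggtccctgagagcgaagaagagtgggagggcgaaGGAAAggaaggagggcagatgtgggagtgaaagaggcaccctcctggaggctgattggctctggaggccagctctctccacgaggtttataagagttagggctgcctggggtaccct
The Il13 window held GGAAA 4 times and the Il4 window 5 times. Of 32851 promoter windows of the same length, 1.59% held it at least 4 times and 0.390% at least 5 times. Csf2 and Il5 each held it 2 times, a number that 21.4% of windows reached, and Tnfsf11 and Tnfsf8 held it 1 time. It was present at least 1 time in 55.6% of windows. The second Il4 window had none. TGANTCA, an AP-1 motif present in 6.75% of windows, was in none of them. Since the windows were picked in part for this motif, the shares over all windows are background and not a test. A match is a run of letters and not a shown binding site.

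The share of cluster 10 among T/NK cells was summarised by strain. Its median over the tumors of a strain was 7.89% in CC036 (range 4.35 to 21.0%), 6.49% in CC075 (0 to 11.4%), 4.35% in CC002 (2.58 to 7.11%), 3.55% in CC007 (0 to 14.2%), 2.77% in CC080 (0.463 to 11.2%), 2.60% in CC001 (0.833 to 4.59%), 2.59% in B6 (0.725 to 5.71%) and 1.98% in CC079 (0 to 3.09%). Neighbours in this order overlapped in every case, and CC036 and CC079, at its ends, did not. Differences between strains were not tested.

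**Figure D4:**
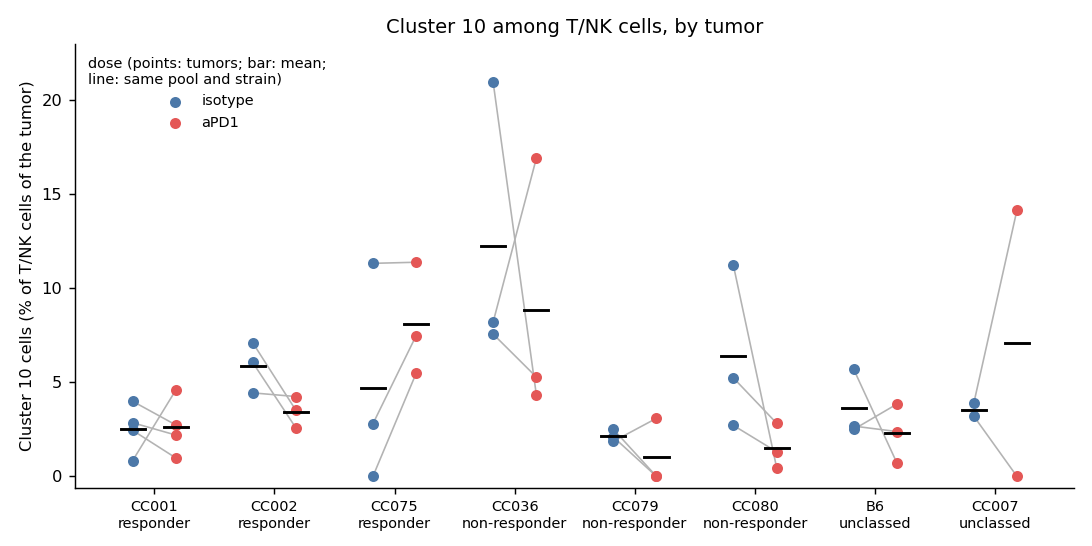
Cluster 10 as a percentage of the T/NK cells of each tumor (y axis), by strain and class (x axis), with isotype in blue and aPD1 in red. Points are tumors, black bars means, and grey lines join tumors of the same pool and strain. The highest tumor, CC036 isotype in pool 8, is at 21.0%, and all 6 CC079 tumors are at or below 3.09%.

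Whether responder and non-responder strains, or aPD1 and isotype tumors, differed in the amount of cluster 10 was tested with rank-sum tests over tumors. In aPD1 tumors, cluster 10 was 0.725% ± 0.740 (SD, n = 10) of all cells in responder strains and 0.341% ± 0.560 (n = 9) in non-responder strains, with medians of 0.557% and 0.136% (exact two-sided p = 0.0422, adjusted p = 0.393 over the 15 share tests). In isotype tumors the means were 0.651% ± 0.570 (n = 10) and 1.79% ± 3.14 (n = 9), exact p = 0.842. The latter mean rests on CC036 isotype in pool 8, at 9.60% of all cells and 21.0% of T/NK cells. Among T/NK cells the means were 4.52% ± 3.03 against 3.81% ± 5.27 with aPD1 (exact p = 0.305) and 4.19% ± 3.31 against 6.94% ± 6.20 with isotype (exact p = 0.497). None of the 15 tests passed, the smallest adjusted p being 0.393. The aPD1 difference in the share of all cells passed when CC036 was left out, at 0.645 percentage points (adjusted p = 0.0262 by the exact rank-sum test), as did that in the ratio to cluster 8 described next (2.87 on the log2 scale, adjusted p = 0.0356). Of the aPD1 tumors of non-responder strains, those of CC036 held 49 of the 59 cluster 10 cells.

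Set against cluster 8, the Foxp3 cluster, cluster 10 was lower with aPD1 in each of the 9 pairs of non-responder tumors from the same pool and strain. As a share of T/NK cells it was lower in 7 of these 9 pairs and as a share of all cells in 6. Counts of cluster 10 cells went, isotype then aPD1, from 80 to 4, 10 to 11 and 10 to 34 in CC036 (pools 8, 9 and 10), from 4 to 0, 4 to 0 and 3 to 3 in CC079 (pools 1, 2 and 5) and from 6 to 3, 87 to 1 and 24 to 3 in CC080 (pools 3, 4 and 11). Cluster 8 cells went from 32 to 21, 18 to 23 and 13 to 51 in CC036, from 45 to 14, 104 to 35 and 51 to 59 in CC079 and from 77 to 77, 118 to 102 and 51 to 22 in CC080, so that in CC036 of pools 9 and 10 the ratio was lower although cluster 10 had more cells with aPD1. The log2 ratio of cluster 10 to cluster 8 cells changed by a median of -1.52 over these pairs, from -5.66 to -0.21. Its mean was -1.86 ± 2.01 in isotype and -3.58 ± 2.05 in aPD1 tumors (n = 9 each), a difference of -1.72 with exact p = 0.0939 and adjusted p = 0.393. Within pairs, flipping signs exactly gave p = 0.00391, the smallest that 9 pairs allow, and adjusted p = 0.0586, so the call was missed in both.

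In responder strains, the counts of cluster 10 cells went from 4 to 2, 1 to 13, 3 to 7 and 9 to 4 in CC001 (pools 1, 2, 4 and 12), from 16 to 15, 28 to 18 and 4 to 15 in CC002 (pools 3, 5 and 12) and from 8 to 51, 0 to 9 and 17 to 18 in CC075 (pools 9, 10 and 11). The log2 ratio to cluster 8 was lower with aPD1 in 7 of the 10 pairs, and its mean was -1.92 ± 1.78 in isotype and -1.85 ± 1.75 in aPD1 tumors (n = 10 each, permutation p = 0.970). The difference of the treatment effects between the classes was 1.79 (exact p = 0.182, adjusted p = 0.393). Among aPD1 tumors the ratio was higher in responder than in non-responder strains by 1.73 (exact p = 0.0947, adjusted p = 0.393), and within pools by 2.00, in 8 of 8 pools that held both classes (exact p = 0.00781, the smallest that 8 pools allow, adjusted p = 0.0586). In CC080, a single animal identifier was given both for isotype in pool 3 and for aPD1 in pool 4, and p-values measure the spread between tumors.

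Gene levels in cluster 10 were compared on counts summed per tumor, over the 16 classed tumors with at least 10 cluster 10 cells. These were 3 responder isotype, 6 responder aPD1, 5 non-responder isotype and 2 non-responder aPD1 tumors. Both of the last were CC036, no CC079 tumor entered, and CC080 entered with isotype only, so the non-responder treatment contrast compares CC036 aPD1 tumors with CC036 and CC080 isotype tumors. Of the responder strains, CC001 entered with 1 tumor only, aPD1 of pool 2, so the responder isotype tumors were from CC002 and CC075 alone. The class contrast gave both treatments equal weight, so the 2 CC036 aPD1 tumors counted as much as the 5 non-responder isotype tumors. Non-responder strains were thus CC036 and CC080 alone, and p-values measure the spread between tumors, not between strains. With edgeR's quasi-likelihood test and Benjamini-Hochberg adjustment over 1288 genes, 4 genes (0.311% of those tested) differed between responder and non-responder strains, 1 higher (0.0776%) and 3 lower (0.233%) in responder strains. Of the 206 genes in the 26 lists, 73 were tested and 1, Ccl3, was among them.

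Rps18, a protein of the small ribosomal subunit, was the gene higher in responder strains. It stood between 1987 and 3064 CPM in the 9 responder tumors (median 2335) and between 861 and 1483 CPM in the 7 non-responder tumors (median 1229). The groups did not overlap, and the log2 difference was 0.95 (SE 0.17, adjusted p = 0.00514, edgeR). Gm10260, a gene annotated as a retrogene, ran the other way. It was at 0 in 7 of 9 responder tumors and at 41.3 and 44.6 CPM in CC002 isotype of pool 5 and CC075 aPD1 of pool 11, against 516 to 1035 CPM in the non-responder tumors (median 867), again with no overlap. Its log2 difference was -5.97 (SE 0.47, adjusted p = 4.20e-08, edgeR).

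Both values are uncertain because the genes are near copies. Rps18 lies at chromosome 17, 33951999 to 33956001, and Gm10260 at chromosome 13, 97760072 to 97760632 (GRCm38), and their coding sequences of 459 bases differ at 4 positions (99.1% identity). The stretch from coding base 166 to 451, which holds all of the differences, is shown with them in capitals.
Rps18: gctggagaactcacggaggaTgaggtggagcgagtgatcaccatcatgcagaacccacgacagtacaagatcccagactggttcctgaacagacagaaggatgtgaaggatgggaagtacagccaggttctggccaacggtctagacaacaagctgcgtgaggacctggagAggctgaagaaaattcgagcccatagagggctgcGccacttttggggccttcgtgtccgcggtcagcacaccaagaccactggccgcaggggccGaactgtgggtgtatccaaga
Gm10260: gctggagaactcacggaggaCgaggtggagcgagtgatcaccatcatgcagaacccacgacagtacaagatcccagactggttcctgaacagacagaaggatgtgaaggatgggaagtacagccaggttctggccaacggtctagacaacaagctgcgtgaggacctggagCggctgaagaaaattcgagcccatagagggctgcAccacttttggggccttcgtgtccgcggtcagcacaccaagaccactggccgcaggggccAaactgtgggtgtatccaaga
As a share of the UMIs of both genes in cluster 10, Gm10260 made up 39.6% in CC036, 42.8% in CC079, 40.6% in CC080 and 43.4% in unclassed CC007, and 0% in CC001, 0.395% in CC002, 0.545% in CC075 and 0.377% in B6. The same split was present outside cluster 10. In other T/NK cells the share was 39.7, 40.9, 40.2 and 41.6% in the first set of strains and 0.413, 0.244, 0.251 and 0.185% in the second, so the difference was not particular to cluster 10. The level of both genes together in cluster 10 was 1870, 2384 and 2388 CPM in CC001, CC002 and CC075 and 1903, 3347 and 2262 CPM in CC036, CC079 and CC080, so the classes overlapped in the sum (Rps18 plus Gm10260), which was not tested.

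Ccl3 encodes an inflammatory chemokine. It was at 0, 73.8 and 103 CPM in the responder isotype tumors and between 0 and 117 CPM in the responder aPD1 tumors (median 28.4). In non-responder isotype tumors it was at 472, 298, 0, 164 and 494 CPM, and in the 2 CC036 aPD1 tumors at 4259 and 929 CPM. Thus 6 of 7 non-responder tumors were above every responder tumor, and the log2 difference was -4.20 (SE 0.62, adjusted p = 0.000785, edgeR). The 657 UMIs of Ccl3 lay in 49 of the 625 cells, 4 of which held 50%, and the 181 UMIs of CC036 aPD1 in pool 9 came from 1 of its 11 cells. Unclassed tumors lay between 0 and 2160 CPM. Ccl3 was not typical of the cluster, at 346 CPM against 852 CPM in other T/NK cells. With counts summed per strain (3 against 3) the difference was -2.39 and the call was lost (adjusted p = 0.679). Its neighbour Ccl4 had a log2 difference of -2.62 (SE 0.69, adjusted p = 0.152), and passed without CC075 (-2.55, adjusted p = 0.0426) and without the filter on low counts (-2.66, adjusted p = 3.00e-20, edgeR). Without CC002 the difference of Ccl4 was -6.48, with CC075 isotype of pool 11 as the only responder isotype tumor.

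Ucp2 encodes a mitochondrial carrier. It was at 148, 289 and 375 CPM in the responder isotype tumors and between 313 and 749 CPM in the responder aPD1 tumors (median 559). In the non-responder isotype tumors it was between 629 and 1033 CPM (median 746), and in the CC036 aPD1 tumors at 1019 and 1200 CPM. The classes overlapped, with 4 of 7 non-responder tumors above all responder tumors, and the log2 difference was -1.23 (SE 0.23, adjusted p = 0.00862, edgeR). Unlike Ccl3, it was seen in 434 of 625 cells and 43 tumors. With pool as a block, Ucp2 (-0.73, adjusted p = 0.444) and Rps18 (0.82, adjusted p = 0.181) were no longer called, whereas Gm10260 (-6.22) and Ccl3 (-5.40) were, as was Lgals7, a galectin gene, at -4.01 (adjusted p = 0.0154, edgeR). Without the block Lgals7 was at -1.03 (SE 0.69, adjusted p = 0.706), and its levels overlapped, from 0 to 681 CPM in responder and from 0 to 800 CPM in non-responder tumors. Lgals7 was not called with counts summed per strain. Without CC002 it was at -5.32, with CC075 isotype of pool 11 as the only responder isotype tumor. Without CC036 aPD1 in pool 9, Rps18 (0.96) and Ucp2 (-1.14) were also lost, both at adjusted p = 0.107. With counts summed per strain neither passed (0.64 for Rps18 and -0.29 for Ucp2, both at adjusted p = 1.00). In these tumors the summed macrophage genes were between 97.7 and 312 CPM in responder and between 97.7 and 304 CPM in non-responder tumors. Cd8a and Cd8b1 together reached 493 CPM in CC001 aPD1 of pool 2 and 293 CPM in CC002 aPD1 of pool 12, lay between 0 and 103 CPM in the other responder tumors and between 0 and 106 CPM in the non-responder tumors. The median UMIs per cell ran from 1287.5 to 3331 in responder and from 2182.5 to 3490 in non-responder tumors. The part of these measures in the differences was not tested.

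**Figure D5:**
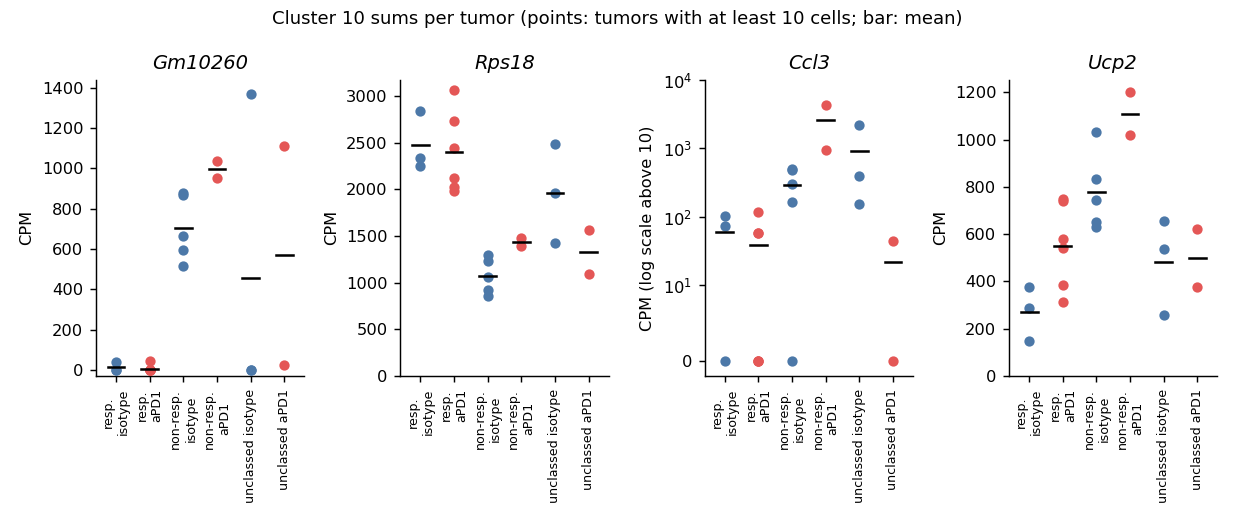
CPM of Gm10260, Rps18, Ccl3 and Ucp2 in the summed cluster 10 cells of each tumor with at least 10 such cells (y axis, logarithmic above 10 CPM for Ccl3), by class and treatment (x axis), with isotype in blue, aPD1 in red and bars at the mean. The 9 responder tumors are at or below 44.6 CPM of Gm10260 and the 7 non-responder tumors at or above 516 CPM, while the unclassed tumors fall on both sides.

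As fitted here, none of the 5 marker genes of the cluster passed between the classes. Cd4 was between 369 and 852 CPM in responder and between 365 and 586 CPM in non-responder tumors (log2 difference 0.11, SE 0.22, adjusted p = 0.897, edgeR). Tnfsf11 was between 410 and 1069 and between 448 and 1397 CPM (0.08, SE 0.25, adjusted p = 0.949). Cd40lg had medians of 248 and 304 CPM (-0.25, SE 0.42). Csf2 was above every non-responder tumor in 4 of the 9 responder tumors, all of them CC002, at 1221 to 1845 CPM, and as low as 11.1 CPM in CC075 aPD1 of pool 11 (0.84, SE 0.61, adjusted p = 0.734). Il13 was at 0 in 4 of 9 responder tumors and at 14.9 CPM or more in all 7 non-responder tumors, but the highest of these 16 tumors was CC002 isotype in pool 3, at 775 CPM (-1.38, SE 0.74, adjusted p = 0.591). Il13 passed with at least 20 cells per tumor (-5.29, adjusted p = 0.000874), a fit of 6 tumors in which 3 of the 4 groups hold 1 tumor, and without the filter on low counts (-1.50, adjusted p = 0.0290, edgeR). With the unclassed ones, the highest of the 21 tumors of at least 10 cells was B6 aPD1 in pool 8, at 1806 CPM. CC001 aPD1 in pool 12, a responder tumor left out for its 4 cells, was at 12180 CPM. Gzmc, a granzyme gene picked out after its values were seen, was above all non-responder tumors in 5 of 9 responder tumors, at up to 1818 CPM in CC002 aPD1 of pool 12, where Cd8a and Cd8b1 together were at 293 CPM, and missed the call (6.02, SE 1.49, adjusted p = 0.127, edgeR). It passed with DESeq2 (5.78, adjusted p = 0.0212), with at least 5 cells per tumor (5.99, adjusted p = 0.0388), without the filter on low counts (5.88, adjusted p = 6.98e-20) and with counts summed per strain (4.35, adjusted p = 0.000963), all of these but the first by edgeR. For Il13 and Gzmc alike, p without the filter was far smaller at a similar difference, and is not read as stronger evidence. The difference of Gzmc was 4.62 with at least 20 cells per tumor (6 tumors), 7.31 in pools 8 to 12 and 5.61 without CC002. Each of these fits left at least 1 group with a single tumor. The UMIs of Gzmc lay in 33 cells, of which 3 held 50%.

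Between aPD1 and isotype tumors no gene passed, in responder strains (0 of 1288, 0%), in non-responder strains (0%) or in the difference between them (0%), by edgeR. Unadjusted p fell under 0.05 for 45, 70 and 37 genes, and DESeq2 also called 0 in each (34, 50 and 24 at unadjusted p under 0.05). With pool as a block 1 gene passed in non-responder strains, Ccl3, which was higher with aPD1 by 3.61 (adjusted p = 0.0410, edgeR), against 3.08 without the block (SE 0.65, adjusted p = 0.157). Ccl3 also passed without CC002 (3.10, adjusted p = 0.0155), without CC036 aPD1 in pool 10 (3.80, adjusted p = 0.0197) and without the filter on low counts (2.93, adjusted p = 1.44e-10, edgeR). Without pool 10 the aPD1 arm was the single tumor of pool 9, whose Ccl3 came from 1 cell, and its spread was assumed to be that of the other groups. Ccl4 passed without the filter (3.07, adjusted p = 7.36e-15, edgeR), and with at least 20 cells per tumor (1.89, adjusted p = 0.0240), again with 1 tumor in the aPD1 arm. Il13 had the widest estimates among the 5 markers. Its log2 difference with aPD1 was -2.67 in responder (SE 1.17, unadjusted p = 0.0331) and 2.35 in non-responder strains (SE 0.93, unadjusted p = 0.0194), and neither passed (adjusted p = 1.00 and 0.860, edgeR). The non-responder difference passed with at least 20 cells per tumor (3.01, adjusted p = 6.02e-05), where the aPD1 arm was the single tumor CC036 in pool 10, assumed to vary like the isotype tumors, and without a filter on low counts (2.40, adjusted p = 0.000481, edgeR). The difference between them was -5.02 (SE 1.49, unadjusted p = 0.00309, adjusted p = 0.999), and passed without the filter (-4.83, adjusted p = 1.43e-06, edgeR). For Ccl3, Ccl4 and Il13, the fit without the filter gave differences near those of the filtered fit with far smaller p. These passes are not read as stronger evidence. The responder value of Il13 turns on CC002 isotype in pool 3, with 21 of the 22 Il13 UMIs of the responder isotype tumors fitted. The responder aPD1 tumors fitted did not include CC001 aPD1 in pool 12, whose 4 cells held 276 Il13 UMIs, more than any other tumor. Tnfsf11 differed by -0.18 (SE 0.33) and -0.67 (SE 0.39), Csf2 by -0.89 (SE 0.77) and 1.26 (SE 0.88), and Cd4 by 0.14 (SE 0.29) and 0.07 (SE 0.32) in responder and non-responder strains. The interval of plus or minus 2 SE ran from -1.46 to 0.12 for Tnfsf11 and from -0.50 to 3.03 for Csf2 in non-responder strains.

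Of the 25 helper cytokine genes, 16 were tested between the classes. Ccl3 was lower in responder strains and none was higher, where 0.233% and 0.0776% of all genes tested were, and the median log2 difference was -0.52 against 0.00 over all 1288 genes. Ifng was at -1.34 (SE 0.49, adjusted p = 0.414, edgeR). Without CC002 Ifng was at -2.85, with CC075 isotype of pool 11 as the only responder isotype tumor. Of the 15 activation genes 11 were tested and none passed (median -0.44), and with 0.311% of all genes called such a count of 0 says nothing about a list of this size. Of the 11 type 2 genes only Gata3 and Il13 could be tested, at -1.43 (SE 0.54, adjusted p = 0.414) and -1.38. Of the 10 αβ T cell genes all were tested and none passed (median -0.04).

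T cell receptor V genes gave a second view of single tumors, chosen after their values were seen. A Trbv gene had a UMI in 354 of the 625 cells, over 21 genes, led by Trbv13-2 (55 cells) and Trbv20 (54 cells). In CC080 isotype of pool 4, the tumor with most cluster 10 cells, 27 of the 57 cells with a Trbv held Trbv20 (47.4%, 95% exact interval 34.0 to 61.0%). In all other tumors the share in cluster 10 was 27 of 297 (9.09%, 6.08 to 12.95%). Among the other T cells of the same tumor it was 7 of 233 (3.00%, 1.22 to 6.09%), and among the T cells of the other CC080 tumors 29 of 317 (9.15%). In the same tumor 9 cluster 10 cells had Trav1, against 2 of 538 in the others, and no cell had both genes. Trbv20 cells were thus more common in cluster 10 of this tumor than the counting intervals of the other sets cover, in 1 tumor with no replicate.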

How the data were processed

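The authors deposited raw UMI counts per gene and cell, made with Cell Ranger 6.1.1 on the 10x 5′ libraries (GRCm38, GENCODE vM23 annotation), after removing cells over 15% mitochondrial or 45% ribosomal expression, together with a cluster number, strain and treatment for each cell. Clusters were built by the study with Seurat 5.0.1 after harmony integration on processing date. Members, gene lists and tests were chosen with earlier results of these data known.

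Counts of cluster 10 were summed per tumor. CPM divides by all UMIs of those cells. Shares were compared by exact two-sided rank-sum tests (permutation with 100000 draws where both groups held 10 tumors), adjusted over 15 tests by Benjamini-Hochberg. For the log2 ratio to cluster 8, 0.5 was added to each count. Genes were tested in the 16 classed tumors of at least 10 cells with edgeR 4.0.16 (TMM scaling, filterByExpr, quasi-likelihood test, R 4.3.3), with 1 group per class and treatment, and DESeq2 1.42.0, other cell minimums, no filter and counts summed per strain among the alternatives. On simulated counts for the class comparison (1185 genes), 64% of genes changed by 2-fold and 98.0% of those changed by 4-fold were recovered. Genes to change were drawn at random, each with its own spread, and no strain effect was simulated. These shares therefore do not carry over to genes of wide spread such as Il13 (SE 0.74) and Csf2 (SE 0.61). Pool was used as a block because 4 tumors shared each library. Over 19 pairs, deviations of the T/NK share within a pool and strain correlated at 0.30 and those of the share of all cells at -0.06. Genes named are the 15 leading genes of at least 100 CPM, the markers, the genes called (at most 5 in each direction) and list members as examples. Python 3.11.15 with scipy 1.17.1 was used.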

Additional observations from a re-analysis of the deposited data

Results flagged for a closer look

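Of 30 groups of 4 to 10 tumors examined, 6 held a tumor that a rule on gaps placed far from the others. The rule flags about 1 in 20 groups of normally distributed values. Shares and CPM are skewed and bounded at 0, so that rate does not apply here. The amount of cluster 10 stood apart in 3 tumors. CC036 isotype in pool 8 was at 9.60% of all cells and 21.0% of T/NK cells, and CC036 aPD1 in pool 10 was at 1.75% and 16.9%. CC075 aPD1 in pool 9 was at 2.67% of all cells. In the sixth group, Gm10260 was at 44.6 CPM in CC075 aPD1 of pool 11 and at 0 in the other 5 responder aPD1 tumors. With all others at 0, any level above 0 would have been flagged.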

How the results depend on the processing

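Of 790 alternative values of the 15 share comparisons, 2 passed, both without strain CC036 (0.645 percentage points of all cells and 2.87 on the log2 ratio between the classes with aPD1). The pool block changed no share call. Several differences that never passed changed sign. With pools 1 to 5 only, the aPD1 difference in responder strains was -0.118 points of all cells, -1.09 points of T/NK cells and -0.15 in the log2 ratio, and the ratio between the classes in isotype tumors was 0.34. With pools 8 to 12 only, the T/NK share between the classes with aPD1 was -1.07 points. The isotype ratio between the classes was 0.058 over strain means (3 against 3, smallest possible p 0.1) and 0.035 with 1 added to each count, which gave -0.045 for aPD1 in responder strains. With clusters 7, 8 and 10 as denominator, the aPD1 difference in responder strains was -0.193 points. Without the 2 isotype tumors of most cells, an alternative chosen after seeing the data, the isotype class difference was 0.254 points of all cells and 0.60 in the ratio. The cause of these changes was not tested.

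Leaving out each strain, or each tumor (added after seeing the data), gave, between the classes with aPD1, -0.826 to 3.24 points of T/NK cells, 0.0870 to 0.661 points of all cells and 0.81 to 2.87 in the ratio. For isotype the ratio ran from -1.09 to 0.89. The aPD1 difference in responder strains ran from -0.986 to 1.52 points of T/NK cells, from -0.280 to 0.414 points of all cells and from -0.68 to 0.80 in the ratio.

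Genes called between the classes, 4 as reported, were 7 with DESeq2, 31 with no filter on low counts, 7 with at least 5 cells per tumor, 8 with at least 20 (6 tumors, 1 in 3 of the 4 groups), 7 without the 2 isotype tumors, 3 with the pool block, 4 with counts summed per strain (1 of them shared with those reported) and 2 to 13 leaving out a tumor or strain (10 without CC002, 13 without CC075, 12 without CC080, 2 without CC036 aPD1 of pool 9 and 7 without that of pool 10). Of 29 alternatives, Gm10260 passed in 29 and Ccl3 in 28, and Rps18 and Ucp2 each in 22. Most of them, 20, left out a tumor or strain of the same tumors. Only the sums per strain, where Ccl3 was lost, took in CC079. Counts for aPD1 in responder strains were 1 with no filter, 1 with at least 20 cells and 0 to 1 leaving out a tumor or strain, the 1 without CC002. In non-responder strains they were 9, 8 and 0 to 1, the 1 without CC002 or without CC036 aPD1 of pool 10, and 1 with the pool block, and for the difference between them 12 with no filter. Without CC036, and in pools 1 to 5, the class and non-responder gene comparisons could not be fitted, nor could treatment in sums per strain. With all UMIs the shares of positive cells were 65.1% for Cd4, 23.8% for Csf2, 62.4% for Tnfsf11 and 34.9% for Cd40lg. For the genes named above, calls with no filter on low counts came with far smaller p at similar differences and are not read as stronger evidence. The number of cells per tumor limits the gene comparisons, since 22 of 38 classed tumors had fewer than 10. Without CC002, and in pools 8 to 12, the only responder isotype tumor fitted was CC075 isotype of pool 11.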
